A study of Homo sapiens with 16 samples.

Results

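Kinetochores are the protein assemblies on centromeres that hold spindle microtubules during mitosis. The outer kinetochore holds the NDC80 complex (NDC80, NUF2, SPC24 and SPC25), which binds the microtubule, KNL1, which carries spindle checkpoint proteins, and the MIS12 complex (DSN1 among its subunits), which joins both to the inner kinetochore. The chromosomal passenger complex consists of the kinase Aurora B (AURKB), its scaffold INCENP, survivin (BIRC5) and borealin (CDCA8), and it releases faulty attachments and takes part in cytokinesis. H3K4me3, trimethylation of histone H3 on lysine 4, marks the promoters of active genes, and H3K27me3 marks promoters held silent by Polycomb proteins.

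These 10 genes were examined among 13386 protein-coding genes with an H3K4me3 region at a promoter. BIRC5 and SPC25 were chosen by measured values: the study's own test of reads in these vehicle and OA libraries had placed their promoters among the regions lower in OA. Their 8 partners were taken because their proteins belong to the same complexes or bind them. For all 10 genes the vehicle and OA values of H3K4me3 are therefore a description, with no test. The position and length of the peaks come from the same libraries and are likewise a description. The untreated libraries, H3K27me3 and the promoter sequences had no part in the choice.

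The material was MCF-10A, an established nontransformed human breast epithelial cell line, grown as biological triplicates of bulk culture and profiled by CUT&RUN, in which a nuclease bound to the antibody releases the chromatin fragments it marks. Vehicle cells received PBS and OA cells 5 mM octanoic acid, a medium-chain fatty acid, for 24 hours, with 3 libraries of each for H3K4me3 and 3 of each for H3K27me3. Untreated cells gave 2 H3K4me3 libraries as positive control and 2 IgG libraries as negative control. The lists held 19953, 16381 and 16086 H3K4me3 peaks in vehicle replicates 1, 2 and 3, 17988, 17975 and 21033 in OA, 12924 and 11242 in untreated cells, and 1280 and 1131 peaks with IgG. Peaks were called in each library alone. In such bulk samples, fewer cells with the mark and less mark per cell cannot be told apart.

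The cells carried H3K4me3 at promoters of basal breast epithelium. KRT5, KRT17, EGFR and CDH3 had a peak in all 6 vehicle and OA libraries. TP63 had one in 2 vehicle libraries and 1 OA library, and KRT14 in 2 vehicle libraries and 0 OA libraries. The hormone receptor genes ESR1 and PGR, the immune genes PTPRC and CD3E, the endothelial genes PECAM1 and CDH5 and the muscle and neuron genes MYOD1 and RBFOX3 had no region.

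All 10 genes had an H3K4me3 region over the canonical start site, and each region was called in all 6 vehicle and OA libraries. Of 20033 protein-coding genes, 13386 had a region, and 10993 of these were called in all 6. The BIRC5 region lay at chr17:78214225-78215279 (hg38, gene on the plus strand). It reached only 28 bp upstream of the start, with 64 bp of untranslated exon, 221 bp of coding exon and 742 bp of intron. The SPC25 region lay at chr2:168889633-168890895 on the minus strand and held 465 bp upstream, 113 bp of untranslated exon and 685 bp of intron. The SPC24 region, at chr19:11154660-11156101 on the minus strand, held 319 bp upstream, 6 bp of untranslated exon, 160 bp of coding exon and 957 bp of intron. The BIRC5 region was the shortest of the 10 at 1055 bp, and the NDC80 region, at chr18:2570674-2572694, the longest at 2021 bp.

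Of the other regions, that of AURKB spanned chr17:8209652-8211099 and that of INCENP chr11:62123588-62125294. Those of CDCA8 and NUF2 lay on chromosome 1 at chr1:37691425-37693096 and chr1:163321160-163322986, that of KNL1 at chr15:40593946-40595386 and that of DSN1 at chr20:36773020-36774525. Some of these promoters were shared with another gene. Divergent starts lay within the regions of NDC80 (METTL4, 48 bp from the NDC80 start), NUF2 (RGS5 and a lncRNA, the nearer at 60 bp), INCENP (a lncRNA at 244 bp) and CDCA8 (C1orf109 at 267 bp), so their peaks cannot be assigned to one gene. No other gene started within the regions of BIRC5, AURKB, SPC24, SPC25, KNL1 and DSN1.

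Many genes of mitosis carry the letters TTTGAA close to the start, the core of the cell cycle genes homology region (CHR), an element through which the DREAM complex holds cell cycle genes down in resting cells. The RefSeq promoter table (GRCh38.p14, 250 bases before to 50 after a start) held 8 of the 10 genes; BIRC5 and KNL1 were not in it. TTTGAA, searched on both strands, was found in 5 of the 8, against 15.2% of all 35116 promoters of the table and 13.7% of the 10648 listed genes with a region, which were counted by gene like the members. In the 100 bases upstream alone it was found in 2 of the 8, against 4.04% of these genes. The windows of 30 bases around it are shown because they are the sequence most of these promoters share; capitals mark TTTGAA, or TTCAAA where it lies on the opposite strand, and each line gives the strand of the gene.
SPC25 (chr2:168890416-168890445, minus strand): aagtgcactaggTTTGAAatcggaaagttg
INCENP (chr11:62123989-62124018, plus strand): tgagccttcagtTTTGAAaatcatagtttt
CDCA8 (chr1:37692481-37692510, plus strand): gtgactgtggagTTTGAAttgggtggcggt
NDC80 (chr18:2571542-2571571, plus strand): ccggcggagaatTTCAAAttcgaacggctt
NUF2 (chr1:163321958-163321987, plus strand): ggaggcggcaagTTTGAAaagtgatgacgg

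In SPC25 and NDC80 the 6 letters straddled the start site, from base -3 to base 3. In INCENP they began at base -10, in CDCA8 at base -23 and in NUF2 at base 17. SPC25 held a second copy at base -247. In CDCA8 the last base of TTTGAA was also the first of a CCAAT box on the opposite strand. TTCGAA, a variant of the element, was found in NDC80 alone (1 of 8, against 1.45% of all promoters and 2.42% of genes with a region), next to its TTTGAA. AURKB, SPC24 and DSN1 held neither set of letters in this window, and the RefSeq starts used for AURKB lay downstream of the canonical start of GENCODE.

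The CCAAT box, bound by the factor NF-Y, was found in 5 of 8 genes (AURKB, INCENP, CDCA8, SPC24 and SPC25), against 34.6% of all promoters and 43.8% of genes with a region. TTTCCCGC, a form of the E2F site, was found in 0 of 8, against 1.63% of all promoters and 3.35% of genes with a region. The upstream stretches of SPC25 and SPC24, partners that bind each other directly and were both low in OA, are shown to compare them, with CCAAT, or ATTGG for the opposite strand, in capitals. That of SPC25 covers bases -150 to -1 (chr2:168890431-168890580) and that of SPC24 bases -175 to -26 (chr19:11155808-11155957), both read along the minus strand.
SPC25: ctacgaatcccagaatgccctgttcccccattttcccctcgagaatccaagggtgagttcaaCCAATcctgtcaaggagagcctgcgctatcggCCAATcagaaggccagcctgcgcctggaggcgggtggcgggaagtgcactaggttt
SPC24: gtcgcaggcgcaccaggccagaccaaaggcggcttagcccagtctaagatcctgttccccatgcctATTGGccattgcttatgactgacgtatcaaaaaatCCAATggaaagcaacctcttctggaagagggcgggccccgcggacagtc
Both stretches held 2 of these boxes, at bases -88 and -56 in SPC25 and at bases -109 and -74 in SPC24, with 1 of the SPC24 boxes on the opposite strand. SPC24 held another at base -207. Over the whole table, TTTGAA was found in 17.2% of the 705 genes with all OA percentiles (defined next) below all vehicle percentiles and in 13.4% of the 1160 genes with all above.

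The strength of a peak was read as its percentile, the rank of its −log10 p among all peaks of the same library, where 100 is the strongest peak. The raw −log10 p grows with depth, and the percentile removes that scale. BIRC5, survivin, stood at percentiles 96.9, 94.4 and 64.2 in the 3 vehicle libraries and at 46.4, 33.1 and 43.0 in the 3 OA libraries. The mean was 85.2 ± 18.2 in vehicle and 40.9 ± 6.96 in OA (SD, n = 3), a difference of -44.3 percentile points. Every OA library lay below every vehicle library, and 5 of 13386 genes had a lower difference. The BIRC5 peak thus went from the top of the list in vehicle replicates 1 and 2 to the lower part of it in OA, and vehicle replicate 3 lay between them.

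SPC25, the NDC80 complex subunit paired with SPC24, stood at percentiles 66.6, 76.8 and 55.2 in vehicle and at 21.4, 16.2 and 16.3 in OA. The mean was 66.2 ± 10.8 in vehicle and 18.0 ± 2.93 in OA (SD, n = 3), a difference of -48.2 points, and 3 of 13386 genes had a lower one. The OA libraries lay close together near the bottom of the list, and the groups were far apart.

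SPC24 stood at 73.7, 69.9 and 47.5 in vehicle and at 35.5, 22.8 and 36.3 in OA. Its mean was 63.7 ± 14.1 in vehicle and 31.5 ± 7.59 in OA (SD, n = 3), a difference of -32.2 points, with 44 of 13386 genes lower. It was the only one of the 8 partners whose OA percentiles were all below its vehicle percentiles, and it also had the largest difference among them.

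Across all genes with a region, 6.54% had all OA percentiles below all vehicle percentiles and 11.4% had all above. The members' count was 3 of 10 below (BIRC5, SPC25 and SPC24) and 0 above. The study's test used the same contrast, so nothing is read from the count. The numbers below and above over all genes were 875 and 1520. They were 1143 and 1078 when peaks were ranked by fold enrichment, and 1114 and 1055 when only regions called in all 6 libraries were ranked, so the balance of the 2 directions depends on the ranking.

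**Figure D1:**
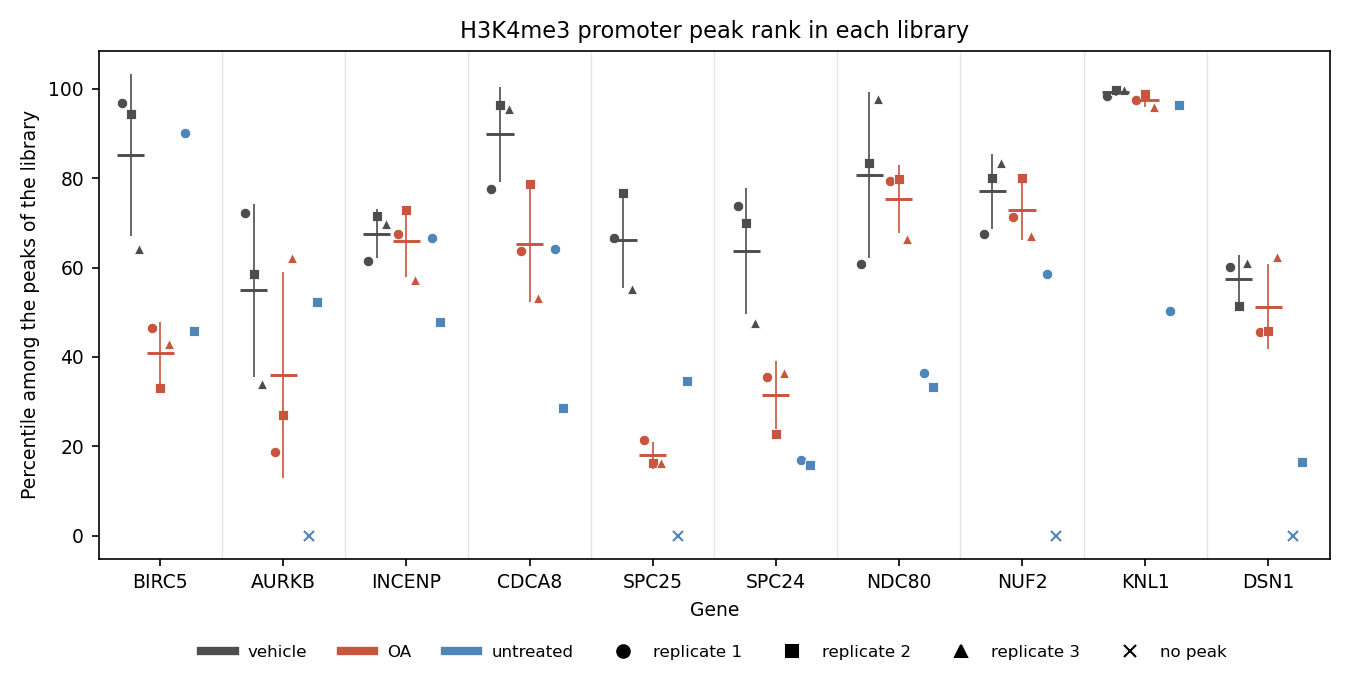
Percentile of the H3K4me3 promoter peak among all peaks of its library (y axis) for the 10 genes (x axis); points are libraries, horizontal bars the mean of 3 libraries and vertical bars the SD, and a cross at 0 marks no peak. The OA points of BIRC5, SPC25 and SPC24 all lie below their vehicle points, and those of KNL1 lie near the top of the scale, as do its vehicle points.

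The other partners in the passenger complex differed among themselves. CDCA8, borealin, stood at percentiles 77.6, 96.5 and 95.4 in vehicle and at 63.8, 78.8 and 53.1 in OA, a difference of -24.6 points. OA replicate 2 overlapped vehicle replicate 1. CDCA8 alone had a second region within 3 kb of a start, at chr1:37689618-37690696, which stood at 56.3, 60.0 and 25.5 in vehicle and at 55.6, 43.9 and 63.9 in OA. The groups overlapped there too, and the highest value was in OA. AURKB, the kinase, stood at 72.2, 58.5 and 34.0 in vehicle and at 18.8, 26.9 and 62.1 in OA, with means of 54.9 ± 19.4 and 35.9 ± 23.0 (SD, n = 3). The groups overlapped widely, with OA replicate 3 above 2 of the 3 vehicle libraries. Without that OA library the AURKB difference was -32.1 with the groups apart, and without vehicle replicate 1 it was -10.3. INCENP, the scaffold, stood at 61.4, 71.6 and 69.8 in vehicle and at 67.6, 72.9 and 57.3 in OA. Its difference of -1.71 points was smaller than the spread of either group (SD 5.44 in vehicle and 7.93 in OA).

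In the NDC80 complex, the SPC24 and SPC25 pair and the NDC80 and NUF2 pair lay apart in OA but overlapped in vehicle. SPC25 was chosen on this contrast, and the regions of NDC80 and NUF2 also hold starts of other genes. NDC80 stood at 60.9, 83.4 and 97.8 in vehicle and at 79.4, 79.9 and 66.5 in OA, a difference of -5.42 points. NUF2, which pairs with NDC80 in the microtubule-binding head, stood at 67.6, 80.0 and 83.5 in vehicle and at 71.4, 80.0 and 67.1 in OA, a difference of -4.22 points. Both differences were within the spread of the vehicle libraries and moved with single libraries. Without vehicle replicate 1 they were -15.3 for NDC80 and -8.94 for NUF2, with the groups apart. Without vehicle replicate 3 they were 3.13 and -0.994, and without OA replicate 3 they were -1.04 and -1.34. Every OA value of both genes was above every OA value of SPC24 and SPC25.

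KNL1 had the strongest peak of the 10 genes in every vehicle and OA library. It stood at 98.3, 99.8 and 99.7 in vehicle and at 97.4, 98.8 and 96.0 in OA, a difference of -1.88 points. DSN1, the MIS12 complex subunit, stood at 60.1, 51.4 and 61.1 in vehicle and at 45.6, 45.9 and 62.3 in OA, a difference of -6.26 points. Both overlapped between the groups.

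With peaks ranked by −log10 p, the mean difference was below 0 for all 10 genes. Of all genes, 41.6% had a mean below 0, and the median difference was 2.50 points, with quartiles of -5.23 and 12.40. The median over the 8 partners was -5.84. In rank order the partners ran SPC24, CDCA8, AURKB, DSN1, NDC80, NUF2, KNL1 and INCENP, and the differences of AURKB, DSN1, NDC80, NUF2 and INCENP were smaller than the larger SD of their groups. Regions called in all 6 libraries were fewer. Ranking within them alone placed BIRC5 at -67.3 points, SPC25 at -46.4, SPC24 at -40.3, CDCA8 at -40.1 and the median partner at -10.5. SPC24 and CDCA8 thus came close to SPC25, and the median over all genes was -1.17. That median was -0.206 with equal numbers of peaks and -0.388 when peaks were ranked by fold enrichment. Ranked by fold enrichment, the differences of INCENP (12.7), NUF2 (9.14) and NDC80 (0.735) were above 0. With q-values of at most 1e-05 that of INCENP was 0.292.

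**Figure D2:**
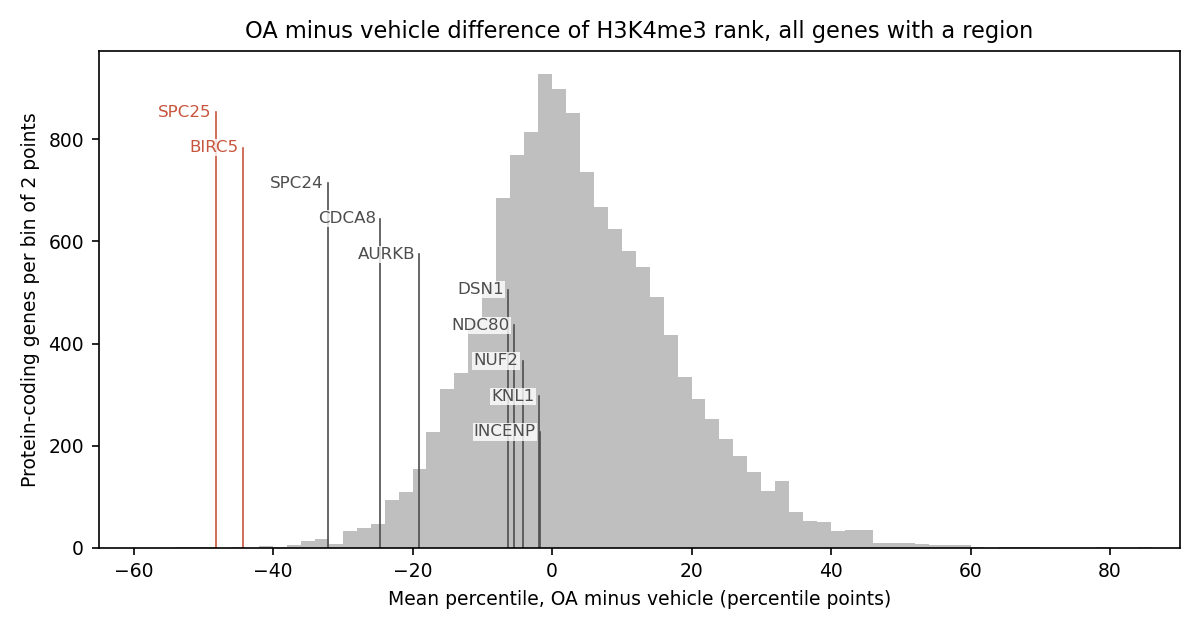
Histogram of the OA minus vehicle difference in mean percentile for 13386 protein-coding genes (x axis in percentile points, y axis genes per bin of 2 points), with a line for each of the 10 genes. SPC25 at -48.2 and BIRC5 at -44.3 lie in the far left tail, SPC24 at -32.2 beside it, and INCENP near the centre, with KNL1 beside it, whose percentile is near its upper limit in both groups.

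The authors' caller also gives a fold enrichment for each peak, the pileup of fragments over the local background, each plus 1. SPC25 had folds of 11.7, 16.4 and 10.6 in vehicle and 6.0, 6.6 and 6.7 in OA, with means of 12.9 ± 3.10 and 6.40 ± 0.345 (SD, n = 3). SPC24 had 8.8, 11.6 and 8.8 in vehicle and 6.4, 7.4 and 8.0 in OA. Both were lower in every OA library than in every vehicle library, and so was KNL1, with folds from 12.5 to 16.8 in vehicle and from 11.2 to 11.8 in OA.

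BIRC5 did not separate on this measure. Its folds were 14.2, 17.5 and 11.1 in vehicle and 8.2, 11.2 and 12.6 in OA, and OA replicates 2 and 3 exceeded vehicle replicate 3. Ranked by fold, its mean difference was -5.90 percentile points with overlapping groups, against -50.3 for SPC25. The local background at the BIRC5 summit was 7.15, 9.51 and 1.88 fragments in vehicle and 1.67, 1.05 and 1.38 in OA, so pileup and background were both lower in OA. Of all genes, 9.02% had all OA folds below all vehicle folds and 3.59% had all above. The members' counts were 3 (SPC24, SPC25 and KNL1) and 0.

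The called length is another reading of the same libraries and contrast, so nothing is read from it beyond the values. The called peak at BIRC5 measured 1052, 927 and 751 bp in the vehicle libraries and 643, 620 and 739 bp in the OA libraries, and the groups did not overlap, though OA replicate 3 came close to vehicle replicate 3. BIRC5 was the only one of the 10 genes with all OA lengths below, against 0.448% of all genes, while 9.55% of all genes had all OA lengths above and 0 of the 10 did. The median difference over all genes was 121.67 bp longer in OA. A shorter mean in OA was found in 8 of the 10 genes, against 24.4% of all genes. The BIRC5 peak kept its upstream edge, at bases -25 to -28 in vehicle and at -25 and -27 in OA replicates 2 and 3, while in OA replicate 1 it began at base 29. Its edge inside the gene lay at bases 1026, 898 and 722 in vehicle and at bases 671, 594 and 711 in OA. The SPC25 peak measured 857, 928 and 747 bp in vehicle and 415, 832 and 719 bp in OA. Its lengths overlapped between the groups, and its pileup summit lay 131 to 136 bp inside the gene in the vehicle libraries and at 135, -102 and 115 bp in OA.

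**Figure D3:**
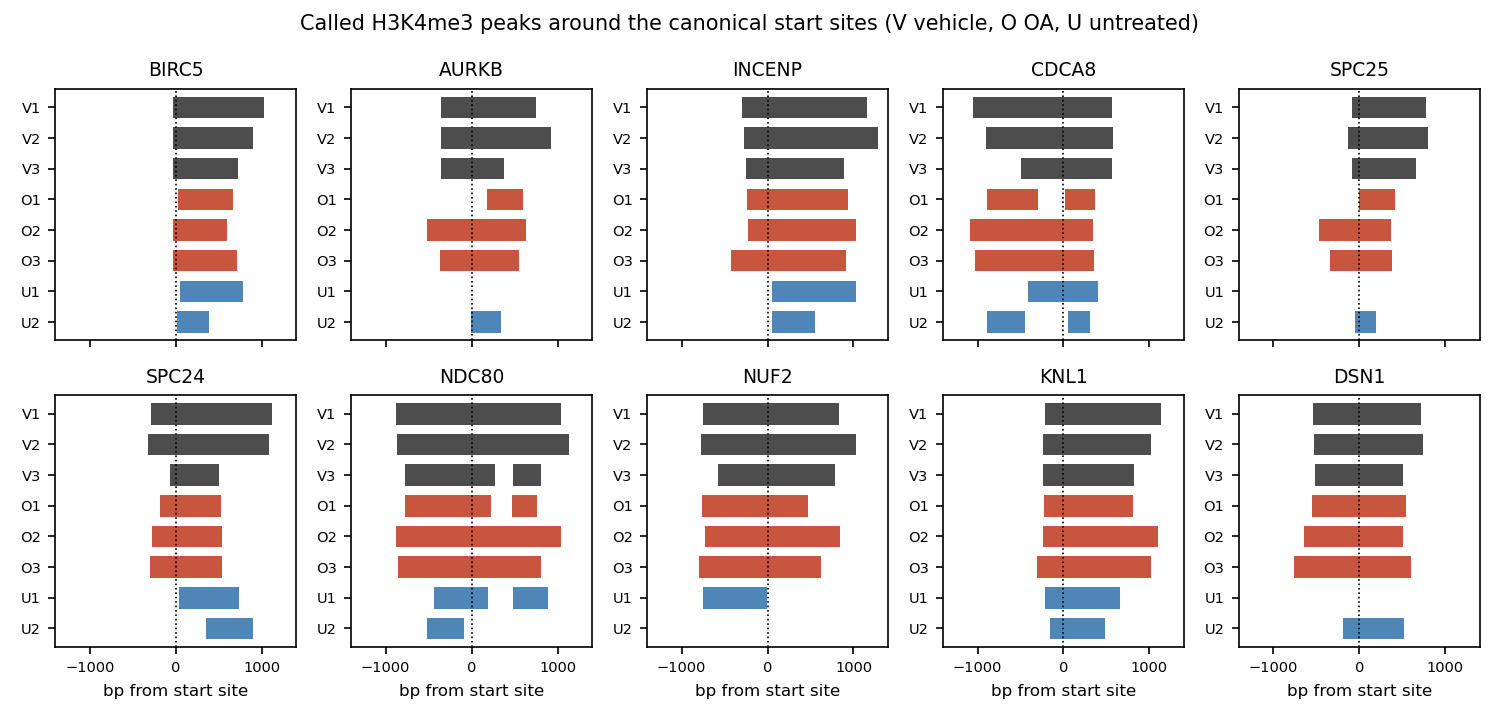
Called H3K4me3 peaks of each library (rows: V vehicle, O OA, U untreated) by distance in bp from the canonical start, positive inside the gene. The BIRC5 peaks end nearer the start in OA than in vehicle, and the SPC25 peaks reach less far into the gene in OA, while those of INCENP and KNL1 cover similar ground in both groups.

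Fold enrichment and −log10 p together fix the whole number of fragments in the pileup, which was recovered for every member's peak. This measure was added after the values were seen. BIRC5 had 115, 183 and 31 fragments at the summit in vehicle and 21, 22 and 29 in OA. The median region called in all 6 libraries had 82, 120 and 33 fragments in vehicle and 40, 92 and 100 in OA, so depth differed within both groups and vehicle replicate 3 was the shallowest by this median. Relative to that median, on the log2 scale, BIRC5 stood at 0.49, 0.61 and -0.09 in vehicle and at -0.93, -2.06 and -1.79 in OA, a difference of -1.93. Of 10993 genes, SPC25 alone had a lower difference.

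SPC25 had 56, 113 and 21 fragments at the summit in vehicle and 13, 13 and 11 in OA. The log2 relative pileup of SPC25 stood at -0.55, -0.09 and -0.65 in the vehicle libraries and reached only -1.62, -2.82 and -3.18 in the OA libraries. The difference of -2.11 was the lowest of the 10993 genes.

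SPC24 differed by -1.36 and CDCA8 by -0.94 on this log2 scale, both without overlap. KNL1 differed by -1.02 with overlapping groups. Of 10993 genes, 88 had a lower difference than KNL1, 136 a lower one than CDCA8 and 19 a lower one than SPC24. Without vehicle replicate 1 the KNL1 difference was -1.50 with the groups apart, and without vehicle replicate 3 it was -0.49. The percentile of KNL1 stayed near the top of its scale in both groups, with a difference of -1.88 points. Its vehicle values were 0.82, 1.75 and 2.84 and its OA values 0.54, 1.24 and 0.59. The remaining 5 partners lay between -0.77 for AURKB and -0.16 for DSN1, all with overlap. Each of these 5 had its groups apart in at least 1 set with a library left out, where separation is easier. Of all genes, 13.0% had all OA relative pileups below and 12.3% above, and the members' counts were 4 and 0. The median difference of all genes was -0.06 and that of the 8 partners -0.75.

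**Figure D4:**
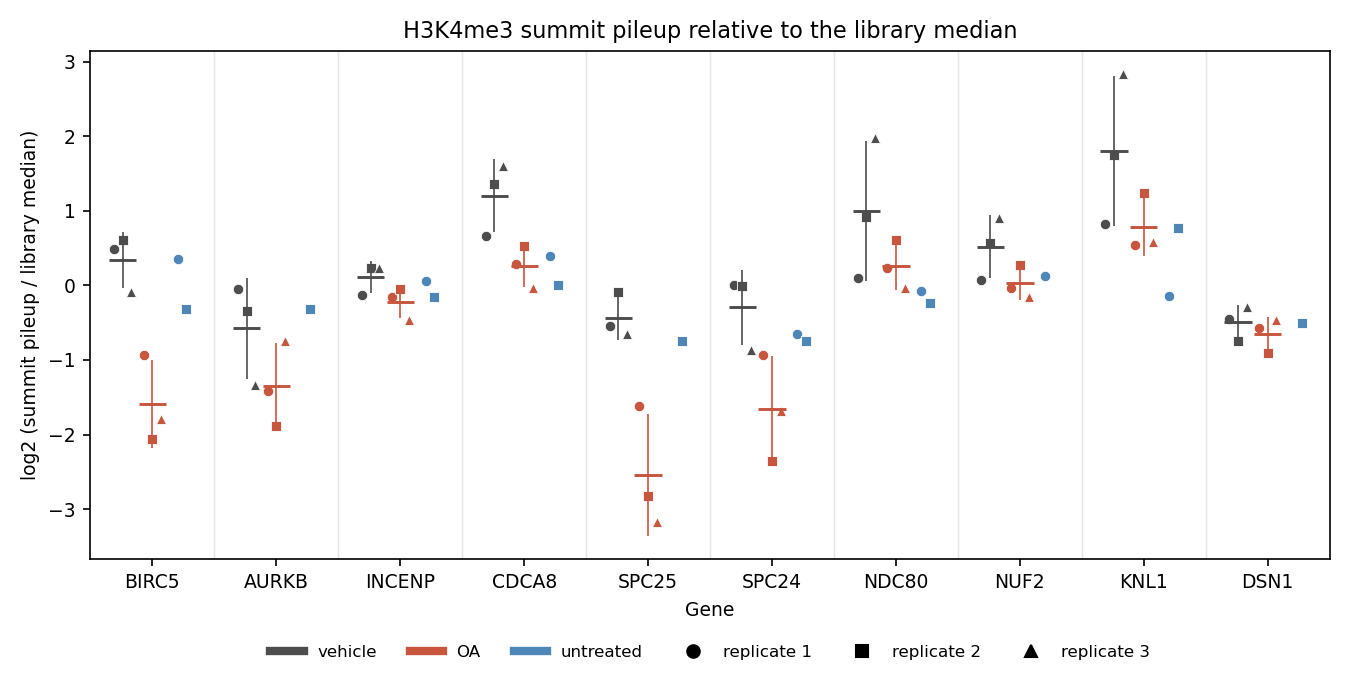
Summit pileup divided by the library's median over regions called in all 6 vehicle and OA libraries, in untreated libraries over those of them with a peak (y axis, log2 scale) for the 10 genes (x axis); points are libraries, horizontal bars means of 3 and vertical bars the SD. BIRC5, SPC25, SPC24 and CDCA8 have no overlap between vehicle and OA, and the OA points of SPC25 reach -3.18.

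The untreated H3K4me3 libraries, which had no part in the choice of the genes, held a peak at 7 and 9 of the 10 genes. Of the 10993 genes called in all 6 vehicle and OA libraries, 89.7% and 83.4% had one, so the members' counts were close to the background. Their median pileup was 22 and 20 fragments, over the 9456 and 8668 of the 11071 regions called in all 6 vehicle and OA libraries that also had an untreated peak with a recovered pileup. BIRC5 stood at percentiles 90.1 and 45.9, near its vehicle value in one library and its highest OA value in the other. SPC25 had no peak in untreated replicate 1 and stood at 34.5 in replicate 2. SPC24 stood at 16.9 and 15.7, below all 6 of its vehicle and OA percentiles, in lists that were shorter. On the log2 relative pileup the untreated values were 0.35 and -0.32 for BIRC5, -0.74 for SPC25 and -0.65 and -0.74 for SPC24. A relative pileup exists only where a peak was called. SPC25 in untreated replicate 1 had none, so its value cannot place the untreated libraries against OA. The untreated values of BIRC5 and SPC24 lay above every OA value of the same gene, the highest being -0.93 for both. Against untreated medians of 22 and 20 fragments, a called peak could hardly read lower. A peak of 12 fragments (SPC24, untreated replicate 2) read -0.74, while 11 fragments (SPC25, OA replicate 3) read -3.18. Nothing is therefore read from this order. The untreated medians cover only the regions called there, so the scales are not the same.

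AURKB and DSN1 had no peak in untreated replicate 1 and stood at 52.3 and 16.5 in replicate 2, and NUF2 stood at 58.5 in replicate 1 and had no peak in replicate 2. A call that was not made does not show that the mark was absent. KNL1, the strongest in the treated series, stood at 50.3 and 96.3. The IgG libraries had no peak at any of the 10 genes. Their lists held only 1280 and 1131 peaks over the whole genome, so nothing is read from this.

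The 3 genes whose percentiles over the 8 H3K4me3 libraries were nearest to those of SPC25, by Euclidean distance among 13386 genes, were SPC24 at 37.9 points, RAD54L, a recombination helicase, at 39.3 and PSMB3, a proteasome subunit, at 43.1. RAD54L stood at 69.7, 78.3 and 51.9 in vehicle and at 5.9, 24.8 and 20.5 in OA, with no peak in untreated cells. Nearest to BIRC5 were MECR, an enzyme of mitochondrial fatty acid synthesis, at 39.5 points, DNA2, a nuclease and helicase of DNA replication, at 41.0 and DPH2, of diphthamide synthesis, at 41.2. No partner was among the 3 nearest to BIRC5.

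The other genes of the pathway were described from 5 gene lists that held none of the 10 genes. Beside the counts that follow stand the shares of all genes, 6.54% below, 11.4% above and 41.6% with a lower mean in OA. Among 13 other genes of the outer kinetochore and corona, 3 had all OA percentiles below all vehicle percentiles and 1 had all above, with a median difference of -0.6. ZWINT, which binds KNL1, had the lowest difference. It stood at 76.0, 78.0 and 88.5 in vehicle and at 16.9, 44.2 and 43.8 in OA, a difference of -45.9. SKA1, of the SKA complex that follows the depolymerising microtubule, differed by -34.8 and CENPF, of the corona, by -14.9. MIS12, the partner of DSN1, had all OA values above, with a difference of 13.2.

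Among 17 inner kinetochore genes, 4 were below and 2 above, with a median difference of -13.9. The lowest were CENPW, CENPO and CENPI, at -40.5, -34.2 and -23.6. CENPW, a histone fold protein, stood at 83.1, 62.3 and 73.2 in vehicle and at 24.7, 37.0 and 35.2 in OA. CENPS and CENPX, which bind each other and also serve in DNA repair, were the ones above, at 27.3 and 11.0. CENPI had no peak in OA replicate 1.

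Among 9 genes of the spindle checkpoint and passenger recruitment, 3 were below and 0 above, and all 9 had a lower mean in OA, with a median of -15 points. These were the checkpoint kinase-like protein BUB1B at -36.2 and the shugoshins SGO1 and SGO2 at -29.0 and -27.8. HASPIN, whose histone phosphorylation recruits survivin, stood at 81.3, 79.5 and 89.4 in vehicle and at 89.7, 77.8 and 71.5 in OA, a difference of -3.7 with overlap.

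The 15 mitotic regulators had the lowest median of the 5 lists, -19.6, with 7 below, 0 above and 14 with a lower mean. CCNB1, cyclin B1, stood at 90.6, 96.6 and 89.2 in vehicle and at 36.5, 62.2 and 55.2 in OA, a difference of -40.8. The kinase PLK1 differed by -35.1 and the kinesin KIF11 by -34.5, and KIF23 had the highest difference at 2.6.

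The 14 G1/S genes, which act in DNA replication, had a median of -3.0, with 2 below and 2 above. RRM2, of ribonucleotide reductase, differed by -29.0 and MCM5, of the replicative helicase, by -15.7. PCNA, the sliding clamp, differed by 17.9 and the licensing factor CDT1 by 28.5. The difference of SPC25 was lower than that of every gene in the 5 lists, and that of BIRC5 lower than all but ZWINT. SPC25 and BIRC5 were chosen on this same contrast and the list genes were not, so nothing is read from this order.

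The list counts depended on the measure and the libraries. Ranked by fold enrichment, 1 checkpoint gene, 2 mitotic regulators and 0 G1/S genes were below, beside 1143 of 13386 genes in all. Where peaks had to cover 50% of the region, the counts were 2 inner kinetochore genes, 4 mitotic regulators and 1 G1/S gene, beside 721 of 13386 genes in all. With q-values of at most 1e-05 no G1/S gene (0 of 14) was below, beside 670 of 13179 genes in all. Without vehicle replicate 1 the counts were 5 in the outer and 7 in the inner kinetochore lists and 7 of the 10 members, beside 1429 of 13297 genes in all. Without vehicle replicate 3 there were 7 inner kinetochore genes, beside 1544 of 13383 genes. Without OA replicate 2 there were 5 checkpoint genes and 5 members, beside 1568 of 13146 genes, and without OA replicate 3 there were 5 members, beside 1658 of 12963. Fewer libraries make separation easier for any gene.

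**Figure D5:**
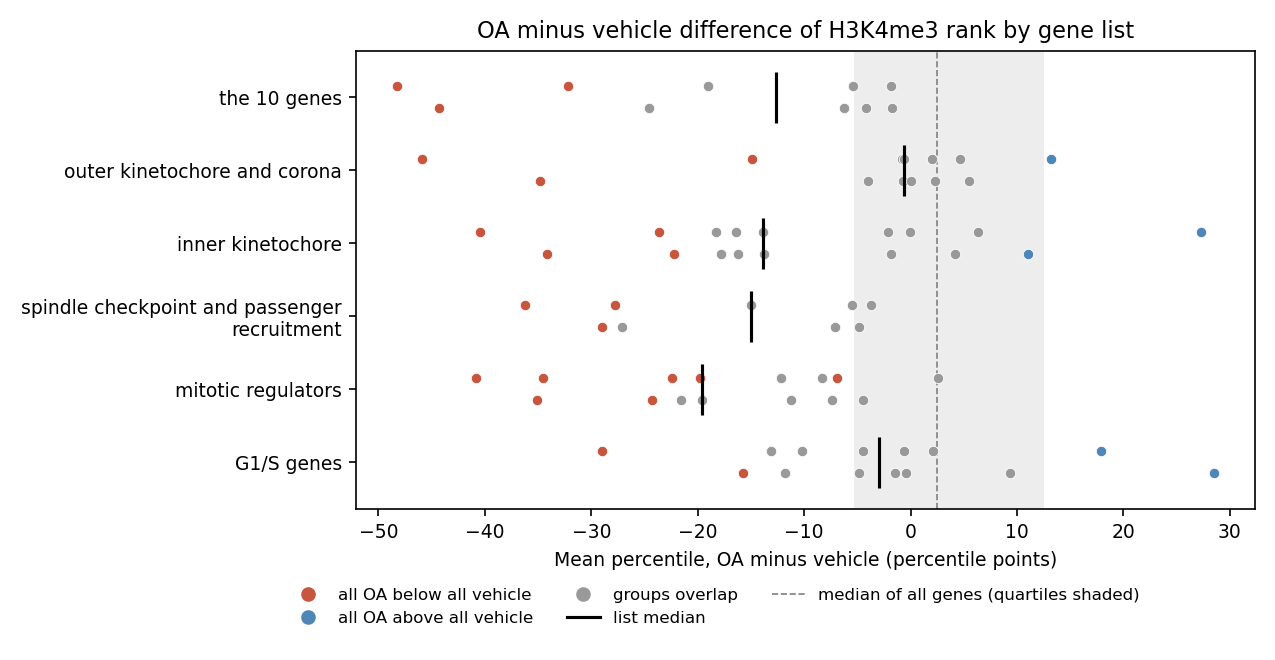
OA minus vehicle difference in mean percentile (x axis, percentile points) for the 10 genes and 5 gene lists (y axis); points are genes coloured by whether the groups overlap, black bars are medians, and the dashed line and shading are the median and quartiles of all genes. The mitotic regulators have the lowest list median, -19.6, and the outer kinetochore and G1/S lists lie near 0.

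The share of genes with all OA percentiles below vehicle moved with region length. Over 4 length classes of about equal size it was 3.43% in the shortest (203 to 1174 bp), 6.29% in the second, 7.97% in the third and 8.47% in the longest. BIRC5 lay in the shortest class and SPC25 and SPC24 in the second. The part of region length in the members' values was not tested.

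H3K27me3 was the independent mark. A peak within 3 kb of any start site of the gene was called at 0, 1 and 0 of the 10 genes in vehicle libraries 1, 2 and 3 and at 1, 0 and 1 in OA. The gene was SPC25 each time. The mean was 0.333 ± 0.577 genes in vehicle and 0.667 ± 0.577 in OA (SD, n = 3; two-sided exact permutation test over libraries, p = 1, where 3 against 3 cannot go below 0.1). Of all 20033 protein-coding genes, 10.4%, 15.2% and 11.8% had such a peak in vehicle libraries 1, 2 and 3. The shares in OA were 15.7%, 10.9% and 4.64%, and 25.3% of genes had one in at least 1 of the 6 libraries.

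The SPC25 peaks lay far from its H3K4me3 region, 19865 to 21495 bp upstream of the canonical start, near the start of longer annotated transcripts. In vehicle replicate 2 the peak spanned chr2:168911388-168912644 with a fold of 2.70. In OA replicate 1 peaks of 172 and 736 bp had folds of 3.02 and 2.80, and in OA replicate 3 a peak of 279 bp had a fold of 3.71. The promoters of all 10 genes over the canonical start were free of H3K27me3 peaks in the 6 libraries. The number of H3K27me3 peaks differed widely within groups, from 18801 to 47648 in vehicle and from 9091 to 32363 in OA, and with the 9091 strongest peaks of each library the counts were 0, 0 and 0 genes in vehicle and 1, 0 and 1 in OA (a difference of 0.667, two-sided exact permutation test, p = 0.4).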

How the data were processed

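CUT&RUN peak lists of MCF-10A cells were used, 1 per library. Per the study's methods, H3K4me3 peaks were called with MACS2 v2.2.7.1 and H3K27me3 peaks with SICER2, although the H3K27me3 lists have the layout that MACS2 gives to broad peaks. The submitters' processing notes name hg38, and all peaks lay within its chromosomes. The aligner, the treatment of duplicates and the use of a control library are not given in the sources used here. The fold enrichment deposited for each peak is the authors' ratio of pileup to local background, and the deposited −log10 p-values and q-values are those of the caller. None was scaled between libraries. The lists hold q-values up to 0.01 (H3K4me3, IgG) and 0.1 (H3K27me3). Total reads were not used here, so depth was read from recovered pileups.

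Peaks on the autosomes, X and Y were kept. Peaks of the 6 vehicle and OA H3K4me3 libraries that overlapped by at least 1 bp were merged and kept where 2 or more libraries had one, giving 18734 regions, 11071 of them in all 6. A gene's region was the one nearest its canonical start among those within 3 kb of any GENCODE 44 start. The strongest peak in it gave the percentile, with 0 for no peak. A gene counted as below or above when all OA values lay on that side of all vehicle values. Genes sharing a region share its values: 13386 genes had 11665 regions. Pileups were solved from fold and −log10 p, assuming the caller's pseudocount of 1 and a Poisson tail, within 0.02 of −log10 p, and were found for 100% of the peaks tried. The counting error of pileups and the spread of 3 cultures limit the precision.

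The members and gene lists were chosen with earlier results of these data known. The text names all 10 members, at most 3 genes at either end of each list, and the 3 genes nearest to BIRC5 and SPC25. Alternatives were a q-value of at most 1e-05, equal numbers of peaks (16086 per H3K4me3 library, 9091 per H3K27me3 library), ranks by fold enrichment or among regions called in all 6, windows of 1 kb and 10 kb, peaks covering at least 50% of a region, untreated libraries in the merge, each replicate left out, a replicate block and motifs in 100 bases upstream. Relative pileup was added after seeing the data. The steps were tested on simulated data. Python 3.11.15, numpy 2.4.6, pandas 2.3.3, scipy 1.17.1 and matplotlib 3.10.9 were used.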

Additional observations from a re-analysis of the deposited data

How the results depend on the processing

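The difference of SPC25 was -57.2 to -42.9 points over 14 alternatives. Leaving out a library and the replicate block cannot bring separate groups together, and the 1 kb window and the merge with untreated libraries left the values of BIRC5, SPC25 and SPC24 as they were, so these say nothing of stability. In the remaining 5 alternatives SPC25 kept its groups apart. BIRC5 overlapped in the rank of fold enrichment (-5.90 points), and its difference was -67.3 among regions called in all 6 libraries. SPC24 overlapped where peaks had to cover 50% of the region (-28.2). With 1 library left out, the difference was -54.8 to -38.5 for BIRC5 and -53.7 to -42.9 for SPC25, and the partners' median was -9.64 to -3.07. In the same sets 1192 to 1658 genes had all OA percentiles below and 1754 to 3441 above, since fewer libraries separate more easily. The H3K27me3 difference was 0.333 genes, 0.167 to 0.667 with 1 library left out, and reversed to -0.333 in a 1 kb window, where only the vehicle replicate 2 call remained. In a 10 kb window 1 member was called in each of the 6 libraries, a difference of 0. It was 0.667 (vehicle 0, 0 and 0, OA 1, 0 and 1, p = 0.4 by the exact permutation test) with 9091 peaks in each library. With q-values of at most 1e-05 no member had an H3K27me3 call.

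The deviations of same-numbered vehicle and OA libraries had correlations over genes of 0.16, 0.12 and -0.13. Depth also differed between these libraries, and no other pairs were compared, so the values cannot decide whether the numbers pair them. With the replicate block, 1819 genes were below, 2625 above and 5 members below, with 8 inner kinetochore genes, 5 checkpoint genes and 11 mitotic regulators, and the H3K27me3 difference stayed at 0.333 (p = 1 by exact permutation, smallest possible 0.25). With 100 bases upstream alone, TTTGAA was found in 2 of 8 members, TTCGAA in 0 and CCAAT in 4, against 4.04%, 0.470% and 27.5% of genes with a region. Among the repeats of other single-gene, list and motif values, 25 moved by more than the spread between replicates, or by more than 1.5 times for counts. With 1 library left out, the OA minus vehicle difference in percentile points was -32.1 to -10.3 for AURKB, -31.4 to -18.5 for CDCA8, -15.3 to 3.13 for NDC80, -8.94 to -0.994 for NUF2, -5.20 to 2.61 for INCENP, -11.8 to -3.45 for DSN1 and -2.57 to -1.20 for KNL1. On the log2 relative pileup it was -2.26 to -1.70 for BIRC5, -2.57 to -1.79 for SPC25, -1.73 to -1.02 for SPC24, -1.22 to -0.75 for CDCA8 and -1.50 to -0.49 for KNL1. For the remaining partners it was -1.15 to -0.50 for AURKB, -1.18 to -0.24 for NDC80 and -0.71 to -0.29 for NUF2. INCENP ran from -0.46 to -0.21 and DSN1 from -0.28 to -0.03. Depth limits which regions are called in each library, and no depth was derived for H3K27me3.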
